A study of Mus musculus with 14 samples.

Results

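Bone-marrow-derived macrophages that had been primed with Poly I:C and then given lipopolysaccharide (LPS) were compared 6 h and 2 h after the LPS, to see which transcripts persisted, decayed or appeared late. Poly I:C mimics viral double-stranded RNA and acts on TLR3, while LPS, from the outer membrane of Gram-negative bacteria, acts on TLR4. The comparison used 4 of the 14 libraries in the series, 2 at each time, and covered 11977 of the 39721 entries of the expression table, namely those with a gene name and a level of at least 1 FPKM (fragments scaled to transcript length and to the mapped fragments of a library) in at least 2 libraries. The cells came from male C57Bl6/J mice aged 6 to 12 weeks and were grown in medium with L929-conditioned supernatant as a source of CSF-1. In the primed groups the first stimulus was 100 ng/mL Poly I:C for 24 h, after which the medium was removed, the cells were washed, and LPS was added for 2 h or 6 h; the dose of this second LPS is not given in the sources used here. Beside these stood primed cells given PBS for 2 h or 6 h (2 libraries each), unprimed cells given PBS first and LPS for 2 h or 6 h (2 libraries each), and cells given PBS both times (1 library at each time). Whether replicates were separate cultures or animals is not said in the labels, so the p-values measure only the spread between these libraries, which may be technical.

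LPS drives macrophages through waves of transcription. Immediate-early factors such as Egr1 and Fos and primary cytokines such as Tnf are switched on within minutes to hours through NF-kB and MAP kinases, and many of their transcripts are short-lived because AU-rich elements in the 3′ untranslated region (UTR) recruit decay proteins such as tristetraprolin (Zfp36). Secondary genes need newly made factors or autocrine interferon beta, and late acute-phase products such as lipocalin-2 and serum amyloid A accumulate over hours. Poly I:C itself induces interferon beta, which raises interferon-stimulated genes.

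Macrophage markers, against which the label was checked, were present in every primed library. The 8 markers Cd68, Emr1 (F4/80), Csf1r, Itgam, Lyz2, Ptprc, Fcgr1 and Cd14 summed to 8482 and 8834 FPKM at 2 h and to 5479 and 5546 FPKM at 6 h after LPS. Of the T-cell markers, Cd3d, Cd3e, Cd3g, Cd8a and Trac were listed at 0 in every primed library, and Cd4 was 7.31 and 5.55 FPKM at 2 h and 4.44 and 2.81 FPKM at 6 h. B-cell markers summed to 1.23 and 1.15 FPKM and then 0.333 and 0.228 FPKM, with Pax5 at 0. Dendritic-cell markers summed to 10.2 and 9.79 FPKM and then 4.21 and 4.07 FPKM, mostly from Xcr1, and endothelial markers to 32.3 and 30.7 FPKM and then 20.2 and 18 FPKM, nearly all from Kdr. Both tested dendritic-cell markers (Xcr1, Zbtb46) and both tested endothelial ones (Kdr, Cdh5) fell from 2 h to 6 h, as did 5 of the 8 macrophage markers. Over all entries 25.3% fell and 14.7% rose. Emr1 rose, from 184 and 175 FPKM to 259 and 257 FPKM, a call that ended without the second 2 h library or either 6 h library. With no filter 3 macrophage markers fell, and Lyz2 was not called (adjusted p = 0.092 by limma). The Kdr call ended without the first 2 h library (adjusted p = 0.055 by limma) or the second 6 h library (0.070). Of the neutrophil markers, S100a9 and Elane were at 0 in every primed library. S100a8 rose from 0 and 0.478 FPKM to 7.01 and 5.81 FPKM, and Camp from 0.132 and 0.502 FPKM to 1.32 and 1.39 FPKM. Stromal markers were low but present, and the first 2 h LPS library stood above the other 3: their sum was 115.6 FPKM there, 44.4 FPKM in the second 2 h library, and 45.1 and 57.1 FPKM at 6 h. Of the 6 tested stromal markers only Pdgfrb was called, and it rose from 0.595 and 0.294 FPKM to 2.13 and 2.19 FPKM. The part of all these other cell types in the results was not tested. The primed LPS libraries correlated within a time at r = 0.985 (2 h) and 0.989 (6 h) across entries. Among the primed PBS libraries, the first 2 h library was above its partner for LPS-inducible genes, with Tnf at 285 and 71.5 FPKM and Cxcl2 at 79.5 and 11.3 FPKM. That gap widens the error of such genes in the shared fit, so named genes whose call turned on that library are pointed out.

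Of the 11977 entries, 1762 were higher at 6 h than at 2 h (14.7%) and 3034 were lower (25.3%), by limma at an adjusted p under 0.05, which is what "called", "rose" and "fell" mean below. These 2 shares are the background for the counts of each list from 2 h to 6 h in primed LPS cells. At least 2-fold changes were 441 higher (3.68%) and 1144 lower (9.55%), and at least 4-fold changes were 38 higher (0.317%) and 147 lower (1.23%). For 7563 entries (63.1%) the 95% interval of the change lay within 2-fold in both directions. The median change over all entries was -0.10 on the log2(FPKM + 1) scale, and -0.07 after median-of-ratios scaling. The factors of that scaling lay between 0.9949 and 1.0459 in these libraries, so it could move the values little. Summed over the table, unnamed entries included, FPKM was 875390.9 and 964258.5 at 2 h and 669511.4 and 635059.5 at 6 h. The cause of the lower sums was not tested. The count of higher entries was 1311 without the second 2 h library, 1106 without the first 2 h library, 1132 without the first 6 h library and 1171 without the second, while the counts of at least 2-fold changes in these fits stayed within 1.5 times of those above. The count of lower entries dropped as well in each of these fits. In bulk RNA, fewer cells of a type and less RNA per cell cannot be told apart. Differences below are 6 h minus 2 h on the log2(FPKM + 1) scale with their standard error, which understates the change of low transcripts, and levels are FPKM in the 2 libraries of a time.

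**Figure D1:**
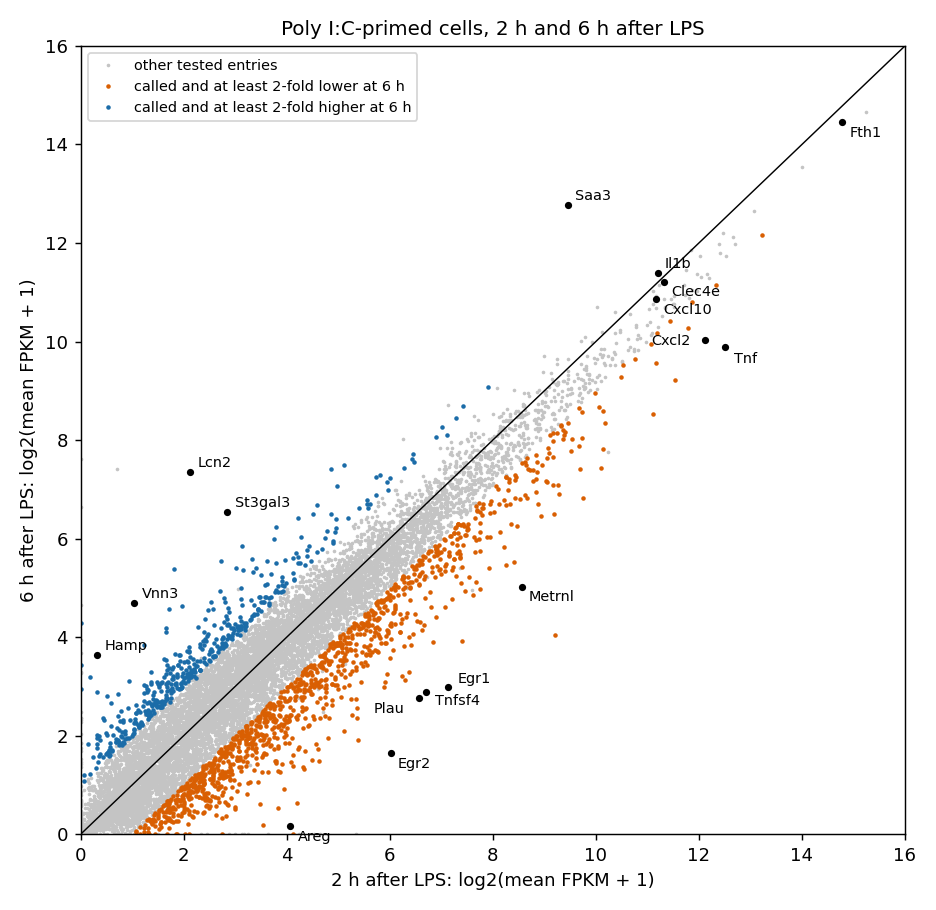
Mean level of every tested entry in primed cells 2 h (x axis) and 6 h (y axis) after LPS, both as log2(mean FPKM + 1), with the 441 called and at least 2-fold higher entries in blue and the 1144 lower ones in orange. Lcn2, St3gal3 and Saa3 lie far above the line of equality, Egr1, Egr2, Areg and Metrnl far below it, and Il1b, Clec4e and Cxcl10 near it.

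Immediate-early transcription factors had the lowest median change of the 26 lists: 19 of the 24 tested members fell and none rose, with a median of -1.26. Egr2, a zinc-finger factor of the early growth response family, was at 71.4 and 56.3 FPKM at 2 h and 2.37 and 1.87 FPKM at 6 h, a change of -4.37 ± 0.24 (SE; adjusted p = 2.5e-06). Its relative Egr1 went from 143 and 137 FPKM to 8.0 and 5.95 FPKM (-4.16 ± 0.19, adjusted p = 8.8e-07). The 2 times did not overlap for either factor, which held for 44.8% of all entries in the lower direction. At 6 h both factors lay between the lowest and the highest primed PBS library. In primed PBS cells Egr1 was 13.1 and 12.5 FPKM at 2 h and 3.11 and 3.95 FPKM at 6 h. Fosb, an AP-1 subunit, dropped from 12 and 9.28 FPKM to 0.154 and 0.116 FPKM, and Nr4a1, an orphan nuclear receptor, from 42.7 and 38 FPKM to 5.53 and 4.28 FPKM. The more abundant Atf3 and Junb fell less far in proportion. Atf3, a repressor induced by stress and TLR signals, went from 544 and 510.3 FPKM to 144 and 140.0 FPKM (-1.88 ± 0.12), and Junb went from 659 and 698 FPKM to 419.8 and 364 FPKM (-0.79 ± 0.22, adjusted p = 0.016). The 5 members that were not called were Klf4, Jund, Mafk, Nr4a2 and Fosl2, with changes between -0.52 and 0.44.

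Cytokines also fell more often than they rose: 12 of 22 tested members fell, 2 rose and the median was -0.66. Tnf, the prototypic primary-response cytokine, stood at 5647 and 6065 FPKM at 2 h and 986 and 916 FPKM at 6 h (-2.62 ± 0.48, adjusted p = 0.0018), so it remained far above the 53.8 and 35 FPKM of primed cells given PBS for 6 h. Ifnb1, the autocrine interferon, went from 218 and 209.8 FPKM to 32 and 29 FPKM (-2.77 ± 0.36, adjusted p = 2.7e-04). Tnfsf4, the OX40 ligand for T cells, went from 97.6 and 108 FPKM to 5.77 and 6.93 FPKM (-3.83 ± 0.25, adjusted p = 6.2e-06). All 3 had time groups that did not overlap, as did 44.8% of all entries in the lower direction and 30.8% in the higher one. Il23a, the specific subunit of interleukin 23, was 65.7 and 86.5 FPKM at 2 h and 14.3 and 11.9 FPKM at 6 h (-2.44 ± 0.18), against 0.216 and 0 FPKM in the 2 h primed PBS libraries. Il10, the main anti-inflammatory cytokine, went from 211 and 216 FPKM to 76.5 and 62.1 FPKM (-1.62 ± 0.31, adjusted p = 0.0024). Csf1, Lif, Osm, Tnfsf15 and Il15 fell too, with changes between -2.49 and -0.54. Csf2 (GM-CSF) went from 32.8 and 46 FPKM to 12.6 and 14.2 FPKM, a fall that was no longer called with a pseudocount of 0.1 (adjusted p = 0.19). Tnfsf9, the 4-1BB ligand, went from 859 and 871 FPKM to 120.4 and 105 FPKM (-2.93 ± 0.83, adjusted p = 0.018). That call ended when any 1 primed LPS library was left out, with adjusted p between 0.066 and 0.084.

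Among the chemokines, 7 of 16 tested members fell and 1 rose, with a median of -0.63. Ccl7 and Ccl2, which recruit monocytes, fell from 2361 and 2083 FPKM to 402 and 338 FPKM (-2.59 ± 0.18) and from 2966 and 2996 FPKM to 607 and 576 FPKM (-2.33 ± 0.17), and both ended close to their 6 h primed PBS levels of 367 and 259 FPKM and 565 and 472 FPKM. The neutrophil attractant Cxcl2 went from 4305 and 4586 FPKM to 1053 and 1039 FPKM (-2.09 ± 0.72, adjusted p = 0.041). The 2 times did not overlap, as for 44.8% of all entries in the lower direction. The Cxcl2 call ended at a pseudocount of 0.1 (adjusted p = 0.056), with no filter (adjusted p = 0.13), and without any 1 primed LPS library. Cxcl1 went from 405 and 478 FPKM to 149 and 136 FPKM (-1.62 ± 0.33), a call lost at a pseudocount of 0.1 (adjusted p = 0.14). The relative Cxcl3 was at 109 and 142 FPKM and 203 and 255 FPKM (0.86 ± 0.36, adjusted p = 0.081) and was not called. Ccl22, a ligand of CCR4, rose from 25.2 and 35.3 FPKM to 129.8 and 138 FPKM (2.13 ± 0.19, adjusted p = 2.7e-05). Fitting the primed LPS libraries alone called 12 chemokines lower and 3 higher.

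The 3′ UTRs and promoters of a few of these genes are shown because AU-rich elements and factor-binding motifs are the sequence features usually discussed for transcripts that decay or persist. The windows of at most 30 bases are from the 3′ UTRs of the mouse GRCm38 annotation, 5′ to 3′ on the sense strand, with the AU-rich heptamer TATTTAT in capitals, overlapping matches included. Tnf and Cxcl2 fell, whereas Ptgs2 and Il1b were not called.
Tnf, chr17:35199678-35199707, minus strand: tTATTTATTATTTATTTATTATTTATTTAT
Cxcl2, chr5:90905327-90905356, plus strand: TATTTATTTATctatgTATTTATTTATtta
Ptgs2, chr1:150105790-150105819, plus strand: ctgaccaTATTTATTTATTTATgtgaagaa
Il1b, chr2:129364802-129364831, minus strand: cttaccTATTTATTTATgTATTTATtgatt

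The whole 3′ UTRs held 8 matches in Tnf, 7 in Cxcl2, 6 in Ptgs2 and 3 in Il1b, so the heptamer was present in transcripts that fell and in transcripts that were not called. Tnf and Cxcl2 had the most matches of the fallen genes counted singly. Cxcl1, Il23a, Il10 and Zfp36 held 6, 5, 4 and 3. Areg, Plau, Cd300lf and Ifnb1 held 1 each, and Egr2, Dusp5, Tnfsf4 and Metrnl held 0. Among protein-coding genes with at least 4-fold lower levels at 6 h, 50 of 120 UTRs (41.7%) held at least 1 match, beside 2617 of 9380 (27.9%) over all tested genes and 7 of 28 (25.0%) among those at least 4-fold higher. The UTRs also differed in length, with medians of 1098, 959 and 780 bases in that order, and the matches per kilobase were 0.58, 0.30 and 0.38. These shares are descriptions with no test.

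The promoters below are the 250 bases before the start of Cxcl2, which fell, Cxcl10, which was not called, and Saa3, which rose; they are from RefSeq, build GRCm38.p6, 5′ to 3′ on the gene's strand, with matches to the searched motifs in capitals.
Cxcl2, chr5:90903649-90903898, plus strand: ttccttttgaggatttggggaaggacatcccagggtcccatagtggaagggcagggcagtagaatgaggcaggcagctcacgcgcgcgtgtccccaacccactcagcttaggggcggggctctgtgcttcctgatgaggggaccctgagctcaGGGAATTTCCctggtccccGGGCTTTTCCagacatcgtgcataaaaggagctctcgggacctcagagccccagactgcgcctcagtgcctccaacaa
Cxcl10, chr5:92348890-92349139, minus strand: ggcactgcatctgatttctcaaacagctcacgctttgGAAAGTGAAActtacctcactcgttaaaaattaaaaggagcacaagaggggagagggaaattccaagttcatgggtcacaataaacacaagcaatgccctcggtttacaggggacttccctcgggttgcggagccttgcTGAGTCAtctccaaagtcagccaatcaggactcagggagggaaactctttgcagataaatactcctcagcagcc
Saa3, chr7:46715677-46715926, minus strand: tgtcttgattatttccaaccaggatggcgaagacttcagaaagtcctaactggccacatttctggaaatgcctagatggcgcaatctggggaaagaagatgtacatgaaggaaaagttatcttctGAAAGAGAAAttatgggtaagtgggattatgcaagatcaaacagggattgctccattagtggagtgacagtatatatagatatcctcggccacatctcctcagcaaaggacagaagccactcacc

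Cxcl2 held 2 matches to the kB motif (GGG, any 2 bases, TTTCC), which begin 97 and 78 bases before the start. Cxcl10 held 1 match to the interferon-response motif (GAAA, any 2 bases, GAAA) and 1 to the AP-1 motif TGANTCA, and Saa3 held 1 match to the interferon-response motif. Over windows from 250 bases before to 50 bases after the start, searched on both strands, the kB motif was found in 4.4% of 91 promoters of at least 4-fold lower genes, 3.85% of 26 of at least 4-fold higher genes and 1.76% of all 7500. The interferon-response motif was found in 3.3%, 11.5% and 3.2% of them, TGANTCA in 8.79%, 3.85% and 5.07%, and TATAAA in 15.4%, 19.2% and 6.75%. The shares of the higher genes rest on between 1 and 5 promoters each, and a match says nothing about binding in these cells. Each motif was searched as 1 fixed pattern, so variant sites are missed. The lack of a match, such as of Cxcl10 to the kB pattern, does not mean that no such site is there.

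Feedback inhibitors of the response moved in both directions, with 12 of 25 tested members lower, 4 higher and a median of -0.55. Over all entries 25.3% were lower and 14.7% higher, so the higher count was near its background. Zfp36, which encodes tristetraprolin, went from 864 and 770.4 FPKM to 269.9 and 200.3 FPKM (-1.81 ± 0.27, adjusted p = 6.2e-04). The MAP kinase phosphatase Dusp5 went from 83.8 and 72.2 FPKM to 8.34 and 7.1 FPKM (-3.18 ± 0.20), and Nfkbiz, an atypical IkB protein, from 581 and 563 FPKM to 147 and 124 FPKM (-2.08 ± 0.32). Trib1, Dusp4, Dusp8, Rcan1, Nfkbid and Zfp36l1 fell as well, with changes between -2.39 and -1.33. By contrast, 4 inhibitors rose: Socs1, which blocks JAK kinases, from 11.3 and 13.8 FPKM to 71.6 and 53.1 FPKM (2.22 ± 0.41, adjusted p = 0.0020), Tnip3 from 61.6 and 61.4 FPKM to 139 and 113 FPKM (1.01 ± 0.15), and Bcl3 and Irak3 by 0.70 and 0.63. Socs3, which limits signalling by interleukin 6, was at 493 and 547 FPKM and 521 and 448 FPKM (-0.10 ± 0.53, adjusted p = 0.90). The A20 gene Tnfaip3 was at 591 and 584 FPKM and then 370.0 and 318 FPKM (-0.77 ± 0.42, adjusted p = 0.17), and Nfkbia, the IkB-alpha gene, at 1279 and 1279 FPKM and 841 and 777 FPKM (-0.66 ± 0.42, adjusted p = 0.24). These last 2 became called as lower without the first 2 h primed PBS library, with adjusted p of 0.012 and 0.029. Dusp1 was called as lower at an adjusted p of 0.047, but the call ended without the first 2 h library (adjusted p = 0.26), the second 2 h library (0.052), the second 6 h library (0.33) or the first 2 h primed PBS library (0.062), and under median-of-ratios scaling (0.062), no filter (0.11), no trend (0.059) and the primed LPS libraries alone (0.084).

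**Figure D2:**
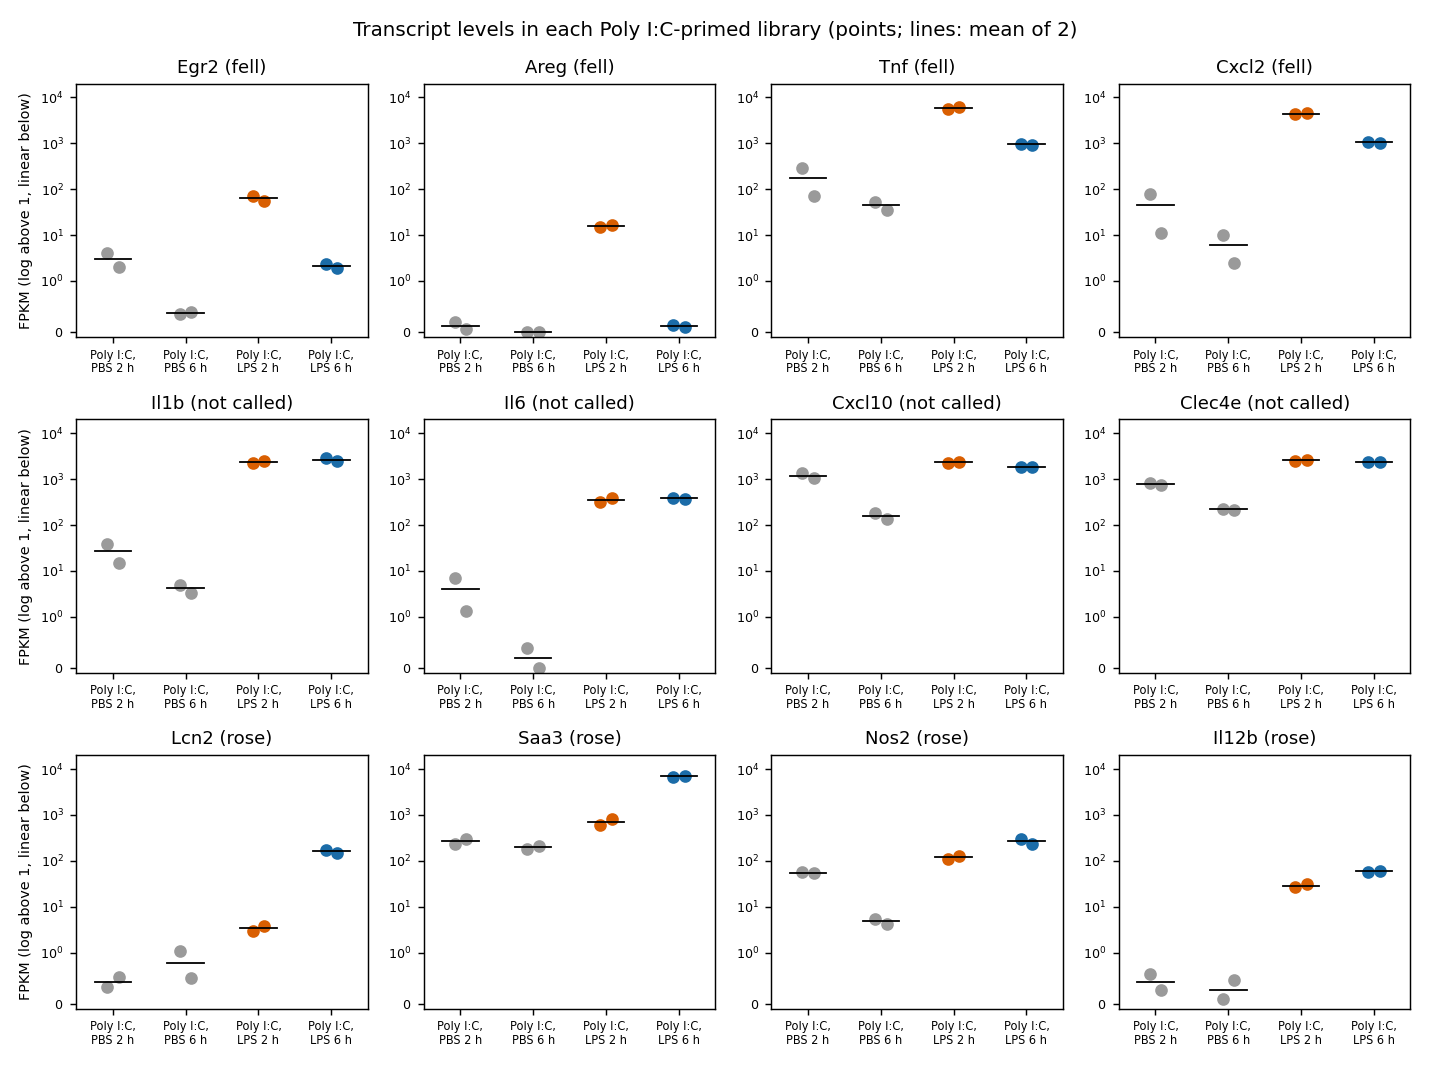
Level of 12 transcripts in each primed library, in FPKM on a scale that is logarithmic above 1 and linear below, with primed PBS libraries in grey, 2 h LPS in orange, 6 h LPS in blue and lines at the mean of 2. The top row fell, the middle row was not called and the bottom row rose from 2 h to 6 h after LPS.

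Several transcripts were nearly lost by 6 h. By the rule of at least 5 FPKM in both 2 h libraries and under 1 FPKM in both 6 h libraries there were 14 of 6474 protein-coding genes. Areg, the epidermal growth factor receptor ligand amphiregulin, went from 14.8 and 16.7 FPKM to 0.143 and 0.0997 FPKM (-3.90 ± 0.16, adjusted p = 5.2e-07). It was 0.187 and 0.0592 FPKM in the 2 h primed PBS libraries and listed at 0 at 6 h, so among primed cells only the 2 h LPS libraries were above 1 FPKM. Pparg, a nuclear receptor of lipid metabolism, went from 8.68 and 8.12 FPKM to 0.614 and 0.888 FPKM (-2.43 ± 0.17), whereas primed PBS cells held 12.5 and 10.6 FPKM at 6 h. Susd3 (14 and 12.5 FPKM, then 0.356 and 0.551 FPKM), the potassium channel Kcnk13 (5.9 and 6.28 FPKM, then 0.312 and 0.284 FPKM) and Hip1 (7.64 and 6.33 FPKM, then 0.469 and 0.485 FPKM) were likewise below 1 FPKM, among primed libraries, only at 6 h after LPS. Fosb, Tmem154, Jup, Tanc2 and Fam102a were the others of the 10 highest. Abundant transcripts among the 12 largest falls included Metrnl, a secreted meteorin-like factor, from 377 and 375 FPKM to 31.8 and 31 FPKM (-3.54 ± 0.14), Plau, the urokinase gene, from 102 and 85.9 FPKM to 5.82 and 5.73 FPKM (-3.80 ± 0.22), and the inhibitory receptor gene Cd300lf, from 160.4 and 175 FPKM to 16 and 12.4 FPKM (-3.48 ± 0.13). Gpr162, an orphan receptor, went from 40.8 and 40.6 FPKM to 2.82 and 2.75 FPKM.

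Receptors for chemotactic signals fell in 10 of 13 tested members (25.3% of all entries) and rose in 2 (14.7% of all entries), with a median of -0.90. C5ar1, the receptor of complement fragment C5a, went from 82.3 and 81.3 FPKM to 8.83 and 8.64 FPKM (-3.09 ± 0.13, adjusted p = 5.2e-07). Cxcr4 went from 13.3 and 14.2 FPKM to 2.77 and 3.88 FPKM (-1.78 ± 0.20) and Ccr1 from 51.2 and 42.6 FPKM to 18.6 and 16.6 FPKM (-1.36 ± 0.13). Fpr1, which senses formylated bacterial peptides, rose from 25 and 31.2 FPKM to 90.2 and 89.7 FPKM (1.65 ± 0.17, adjusted p = 6.3e-05). Ccr7, the lymph-node homing receptor, also rose, from 8.98 and 10.3 FPKM to 17.7 and 12.3 FPKM (0.57 ± 0.18, adjusted p = 0.028). Only 1 member was higher at a pseudocount of 0.1, in the fit of the primed LPS libraries alone, and without either 2 h library or the first 6 h library.

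Of 24 tested genes of TLR signalling, 9 fell and 2 rose, beside 25.3% lower and 14.7% higher over all entries. The endosomal nucleic-acid receptors Tlr9 (26.5 and 21.4 FPKM, then 4.46 and 3.74 FPKM; -2.29 ± 0.20) and Tlr13 (92.5 and 89.1 FPKM, then 19.3 and 19 FPKM; -2.19 ± 0.23) changed most. The receptors of the 2 stimuli were not called: Tlr4 was at 12.2 and 8.4 FPKM and 9.72 and 7.33 FPKM, and Tlr3 at 54.7 and 48.8 FPKM and 47.2 and 41.5 FPKM. Without the second 6 h library, 5 members of this list were lower, and without the first 6 h library none was higher. Survival and cell-death genes had 15 of 20 tested members lower and none higher (9 lower without the second 6 h library), with a median of -0.70. Pmaip1, the pro-apoptotic Noxa gene, went from 24 and 21.7 FPKM to 2.11 and 3.02 FPKM (-2.75 ± 0.21), the anti-apoptotic Mcl1 from 453 and 457 FPKM to 151 and 141 FPKM (-1.63 ± 0.13), and the inflammasome sensor Nlrp3 from 398 and 394 FPKM to 121 and 112 FPKM (-1.76 ± 0.21). The list thus held both pro-survival and pro-death genes that fell. Genes of resident or alternatively activated macrophages had 14 of 23 tested members lower and none higher, among them the complement gene C1qc (1721 and 1682 FPKM, then 858 and 924 FPKM; -0.93 ± 0.17) and Trem2 (245 and 249 FPKM, then 122 and 149 FPKM; -0.87 ± 0.19). Mrc1, the mannose receptor, was low in primed LPS cells at 4.31 and 4.0 FPKM and 3.68 and 3.61 FPKM.

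All 22 tested lysosomal genes fell, with a median change of -0.68. Lipa, the lysosomal acid lipase, went from 219.7 and 212 FPKM to 54.4 and 51.5 FPKM (-2.01 ± 0.16, adjusted p = 1.8e-05), and Gla, alpha-galactosidase, from 205 and 190.3 FPKM to 69 and 59.4 FPKM (-1.61 ± 0.10). The abundant cathepsin transcript Ctsb went from 3753 and 3697 FPKM to 2157 and 2086 FPKM (-0.81 ± 0.14). In every one of these the 2 times did not overlap, as in 44.8% of all entries in the lower direction. Over the same hours 3 of the 22 members rose and 2 fell in primed cells given PBS (background 12.3% higher and 18.0% lower), and 4 rose and 2 fell in unprimed cells given LPS (background 23.4% and 26.0%). Leaving out 1 library gave 1 higher member in primed PBS cells, and in unprimed LPS cells up to 8 higher (without the first 2 h library) or 6 lower (without the second). The difference from the PBS change was called as lower for 13 members (12.4% of all entries) and the difference from the unprimed change for 17 (25.3%). Lipa itself held 251 and 245 FPKM at 6 h in primed PBS cells.

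**Figure D3:**
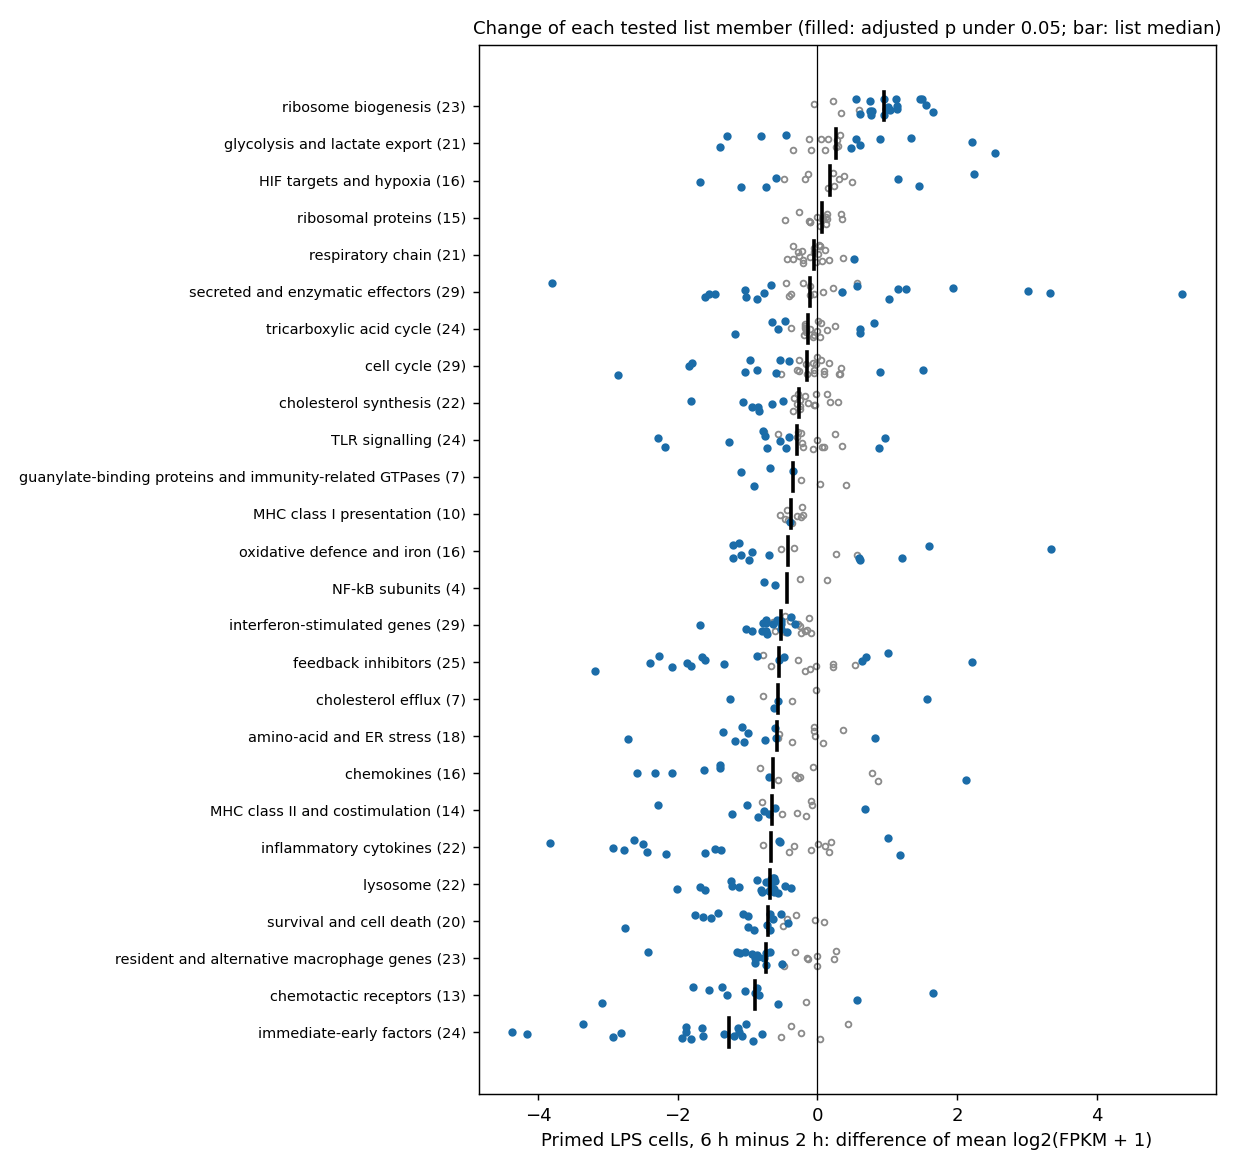
Change from 2 h to 6 h after LPS in primed cells (x axis, difference of mean log2(FPKM + 1)) for every tested member of 26 gene lists, with the number of members in brackets, filled points for called members and a bar at the median. Immediate-early factors have the lowest median and ribosome biogenesis the highest, and all 22 lysosomal genes lie below 0.

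Many abundant transcripts that were above the primed PBS libraries at both times after LPS changed by less than 2-fold from 2 h to 6 h. In 313 genes the mean was at least 100 FPKM at 2 h and all 4 LPS libraries were above all 4 primed PBS libraries. Of these, 32 were called and at least 2-fold lower at 6 h (9.55% of all entries were), and 6 were at least 2-fold higher (3.68% of all entries). This rule includes the 6 h libraries, so genes back within primed PBS levels by then, such as Egr1, are left out. The counts therefore do not describe all transcripts that LPS had raised by 2 h. By a stricter rule, which also put the 95% interval of the change inside 2-fold in both directions, 229 of the 313 persisted. That interval lay inside 2-fold for 63.1% of all entries as well. Il1b, the precursor of interleukin 1 beta, was 2197 and 2506 FPKM at 2 h and 2824 and 2533 FPKM at 6 h (0.19 ± 0.35, adjusted p = 0.70). In primed PBS cells it was 38.5 and 14.7 FPKM and 4.99 and 3.28 FPKM. The 95% interval of its change lay within 2-fold in both directions, while every LPS library stayed far above every PBS library. Clec4e, the receptor Mincle, was 2468 and 2641 FPKM and 2395 and 2351 FPKM (-0.11 ± 0.11), and Il1rn, the interleukin 1 receptor antagonist, 2422 and 2383 FPKM and 2527 and 2018 FPKM (-0.09 ± 0.15). Il6 was 322 and 395 FPKM and 389.9 and 378 FPKM (0.10 ± 0.46, adjusted p = 0.88), and its interval passed 2-fold on the higher side, so it was not among the 229. In primed PBS cells Il6 was at or under 6.90 FPKM. The other members of the 10 highest were Fth1, H2-K1, Tmsb4x, Prdx5, Ccl9, Cxcl10 and H2-Q7.

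Several transcripts that were not called still had time groups that did not overlap. Over all entries, 44.8% did not overlap in the lower direction and 30.8% in the higher one. Cxcl10, a ligand of CXCR3 and among the 229, was 2306 and 2312 FPKM at 2 h and 1859 and 1850.1 FPKM at 6 h (-0.32 ± 0.20, adjusted p = 0.24). Il1a was 2393 and 2614 FPKM and 1550.4 and 1384 FPKM (-0.77 ± 0.56, adjusted p = 0.30), and it became called as lower without the first 2 h primed PBS library (adjusted p = 0.029). Ptgs2, cyclooxygenase 2, was 1068 and 1012 FPKM and 876 and 728 FPKM (-0.38 ± 0.35), and Ccl3 was 5557 and 5841 FPKM and 4778 and 4634 FPKM (-0.28 ± 0.47). The intervals of Il1a, Ptgs2 and Ccl3 passed 2-fold on the lower side, so these were not among the 229. When the 4 primed LPS libraries were fitted alone, which leaves 2 residual degrees of freedom, Cxcl10, Il1a, Ptgs2, Ccl3, Ccl5, Ccl9, H2-K1, H2-Q7 and Prdx5 were called as lower, all by less than 2-fold. Irg1, which makes itaconate, was 2818 and 2760.4 FPKM and 1435 and 1303 FPKM (-1.03 ± 0.17, adjusted p = 0.0012), and so fell while it stayed above the 164 and 131 FPKM of the 6 h PBS libraries.

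Of 29 tested interferon-stimulated genes 17 fell and none rose, with a median of -0.52 and 2 falls of at least 2-fold. The count was 5 without the first 2 h library, 6 without the second, 10 without the first 6 h library and 3 without the second. Irf1, an interferon-regulatory factor, changed most, from 856 and 832 FPKM to 273 and 253 FPKM (-1.68 ± 0.23, adjusted p = 3.5e-04). Isg15, a ubiquitin-like modifier, was 5871 and 5864 FPKM and 3394 and 3442 FPKM (-0.78 ± 0.23), Rsad2, the antiviral viperin gene, 1933 and 1609 FPKM and 1149 and 977 FPKM (-0.73 ± 0.15), and Ifit1 924 and 880.1 FPKM and 871 and 796 FPKM (-0.12 ± 0.16, adjusted p = 0.61). In primed PBS cells 28 of the 29 fell over the same hours (18.0% of all entries), with a median of -1.29: Rsad2 went from 1344 and 1496 FPKM to 341 and 289 FPKM. In unprimed cells given LPS 28 of the 29 rose (23.4% of all entries), with a median of 3.36, and only Irf1 was lower: Rsad2 went from 287 and 257 FPKM to 3589 and 4116 FPKM. The difference between the primed and the unprimed change was called for 27 members, all lower in primed cells (background 25.3% lower). The difference from the primed PBS change was called for 16 members, all higher with LPS (background 8.99% higher).

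Guanylate-binding proteins and immunity-related GTPases, which attack vacuoles of intracellular microbes, had 4 of 7 tested members lower. Gbp2 went from 1765 and 1662 FPKM to 968 and 864 FPKM (-0.90 ± 0.17, adjusted p = 0.0022) and Gbp5 was at 498 and 508 FPKM and 697 and 644 FPKM (0.41 ± 0.15, adjusted p = 0.052); 8 further members of the list lie in entries shared by several genes. The count was 2 without either 6 h library. Of the class I antigen-presentation genes 1 of 10 tested was called as lower, none without any 1 of the primed LPS libraries, and 8 when the primed LPS libraries were fitted alone; B2m was 16315 and 16591 FPKM and 11797 and 12106 FPKM (-0.46 ± 0.18, adjusted p = 0.066). Of the class II and costimulation genes 7 of 14 were lower and 1 higher. Cd83, a maturation marker, went from 819.7 and 840.2 FPKM to 175 and 165 FPKM (-2.28 ± 0.21), while the costimulatory receptor Cd40 rose from 954 and 1123 FPKM to 1729 and 1612 FPKM (0.69 ± 0.15, adjusted p = 0.0046). H2-Q6 and H2-Q7, Saa1 and Saa3, and Tgtp1 and Tgtp2 belong to families of related genes, so their FPKM values may depend on how shared fragments were split.

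The 12 largest rises included secreted products, enzymes and receptors. Lcn2, lipocalin-2, which binds bacterial siderophores, was 2.98 and 3.74 FPKM at 2 h and 176 and 147 FPKM at 6 h (5.22 ± 0.25, adjusted p = 1.2e-06), the largest rise by the rule used for naming genes. Saa3, serum amyloid A3, went from 592 and 819.5 FPKM to 6890.5 and 7084 FPKM (3.32 ± 0.44, adjusted p = 2.9e-04). Neither gene was called over the same hours in primed cells given PBS, with Saa3 at 235 and 299.6 FPKM and 181 and 216 FPKM in the primed PBS libraries. St3gal3, a sialyltransferase, went from 6.91 and 5.49 FPKM to 92.8 and 91.1 FPKM (3.70 ± 0.18), Vnn3, a pantetheinase of the vanin family, from 0.854 and 1.27 FPKM to 25.6 and 24.2 FPKM (3.66 ± 0.19), and Shisa3 from 2.49 and 2.53 FPKM to 39.9 and 41.1 FPKM (3.56 ± 0.13). Slamf1, an immune-cell receptor, went from 5.5 and 5.74 FPKM to 51.4 and 40.6 FPKM (2.82 ± 0.21). Rin3, Ggta1 and U90926 rose by 2.86, 2.72 and 2.65.

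By the rule of under 1 FPKM in both 2 h libraries and at least 5 FPKM in both 6 h libraries, 6 of 6474 genes appeared late. Hamp, which encodes the iron-regulating hormone hepcidin, was 0.495 and 0 FPKM at 2 h and 12.8 and 10.1 FPKM at 6 h (3.34 ± 0.41, adjusted p = 1.8e-04). Saa1 was 0.262 and 0 FPKM and 8.84 and 7.35 FPKM (3.01 ± 0.21), and listed at 0 in all 4 primed PBS libraries. S100a8, a calgranulin subunit, was 0 and 0.478 FPKM and 7.01 and 5.81 FPKM (2.60 ± 0.24). Abcc4, Fam221a and Hdac9 completed the set, with changes of 2.17, 2.11 and 2.30. S100a8 also stands on the neutrophil marker list, whose 7 members summed to 0.455 and 0.980 FPKM at 2 h and to 8.33 and 7.2 FPKM at 6 h. Camp rose as well, from 0.132 and 0.502 FPKM to 1.32 and 1.39 FPKM, whereas S100a9, Elane, Mpo and Ngp were at 0 in all 4 primed LPS libraries and Ly6g in 3 of them; the part of such cells in these rises was not tested.

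Of 29 tested secreted and enzymatic effectors, 9 rose and 9 fell, beside 14.7% higher and 25.3% lower over all entries. Nos2, the inducible nitric oxide synthase, was 111 and 126 FPKM at 2 h and 299 and 234 FPKM at 6 h (1.15 ± 0.29, adjusted p = 0.011). The call ended without the first 2 h library (adjusted p = 0.065) or the first 6 h library (0.080). Slc7a2, which imports its substrate arginine, rose from 110.2 and 145 FPKM to 330.5 and 283 FPKM (1.27 ± 0.18), while Ass1, which resynthesises arginine, fell from 159.8 and 182 FPKM to 55.3 and 59.4 FPKM (-1.56 ± 0.19). Ceruloplasmin (Cp), Hp, Mmp14 and Sod2 rose by 1.94, 1.02, 0.56 and 0.35, and Plaur, Edn1, Thbs1, Gch1, F3 and C3 fell, with changes between -1.60 and -0.66. Among cytokines, the 2 that rose were the interleukin 12 family subunits Ebi3, from 222 and 254 FPKM to 550.3 and 532 FPKM (1.19 ± 0.20, adjusted p = 0.0011), and Il12b, from 26.6 and 31 FPKM to 57.6 and 60.7 FPKM (1.02 ± 0.25, adjusted p = 0.0095). The Il12b call ended at a pseudocount of 0.1 (adjusted p = 0.11), without the first 2 h library (0.065) or without the second 6 h library (0.058). Il12b and Il23a encode the 2 chains of interleukin 23, and their transcripts had opposite directions.

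Ribosome biogenesis had the highest median of the 26 lists, 0.95: 19 of 23 tested members rose and none fell. Tsr1, a factor of small-subunit assembly, went from 2.58 and 3.76 FPKM to 11.1 and 13.1 FPKM (1.66 ± 0.19, adjusted p = 1.2e-04), and Nop2, an rRNA methyltransferase, from 3.68 and 4.26 FPKM to 12.6 and 13.4 FPKM (1.49 ± 0.17). Npm1, Ncl, Polr1a and Dkc1 were not called. In primed PBS cells 19 of the 23 rose as well (12.3% of all entries), with a median of 0.87. In unprimed cells given LPS 20 of the 23 fell (26.0% of all entries), with a median of -1.52. Tsr1 was 6.44 and 4.66 FPKM and 9.86 and 10.3 FPKM in primed PBS cells and 20.5 and 18.4 FPKM and 2.4 and 1.78 FPKM in unprimed LPS cells. The difference from the unprimed change was called for all 23 members (19.1% of all entries were called in that direction) and the difference from the primed PBS change for 2, or 1 without the first 2 h primed PBS library, either 6 h PBS library, the first 2 h LPS library or either 6 h LPS library, with no filter, and with the replicate block. Over all entries 8.99% were called as higher for the difference from the primed PBS change, so the 2 members were near that background. None of the 15 tested ribosomal protein genes was called from 2 h to 6 h, and the fit of the primed LPS libraries alone called 1 higher and 2 lower.

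**Figure D4:**
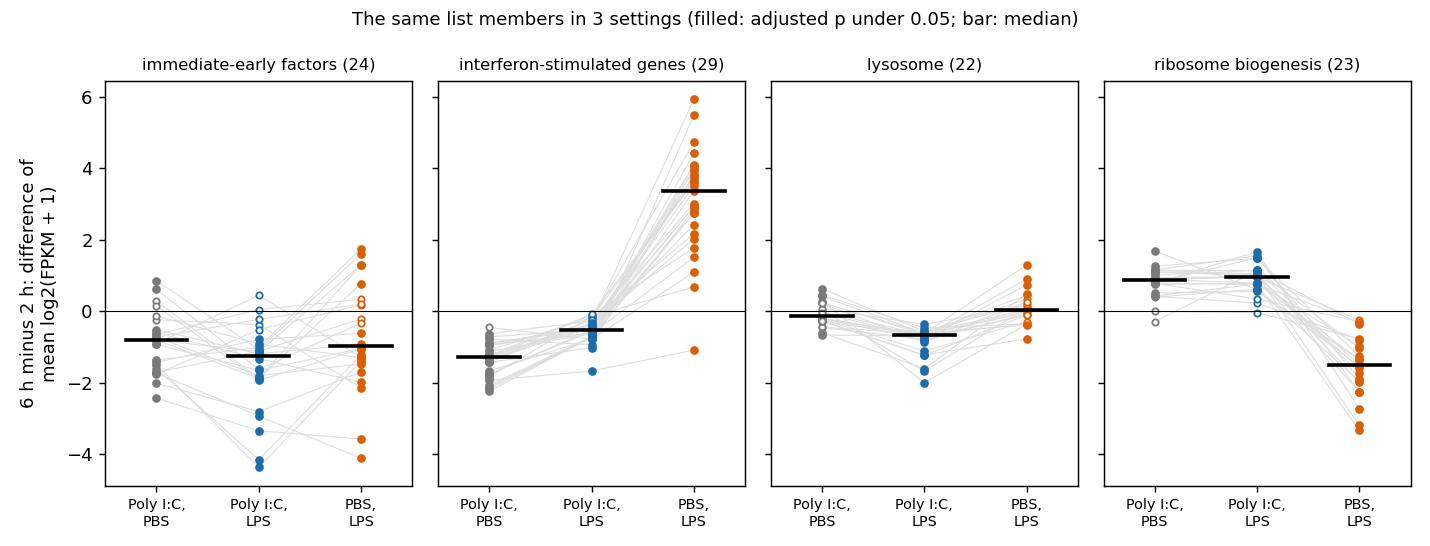
Change from 2 h to 6 h (y axis, difference of mean log2(FPKM + 1)) of the members of 4 lists in primed cells given PBS, primed cells given LPS and unprimed cells given LPS, with filled points for called members and a bar at each median. Interferon-stimulated genes have medians of -1.29, -0.52 and 3.36 and ribosome biogenesis 0.87, 0.95 and -1.52, while all lysosomal genes are below 0 in primed LPS cells only.

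Among metabolic genes, single steps of a pathway moved in different directions. Of 21 tested glycolysis and lactate-export genes 7 rose and 4 fell (4 rose without the first 2 h or the second 6 h library). Pfkfb3, which makes the activator of phosphofructokinase, rose from 29.2 and 26.6 FPKM to 195 and 143 FPKM (2.54 ± 0.17, adjusted p = 7.0e-06) and Pfkl from 7.82 and 7.85 FPKM to 36.8 and 43.8 FPKM (2.22 ± 0.16), while the platelet isoform Pfkp fell from 44.8 and 47.1 FPKM to 17.4 and 18.8 FPKM (-1.30 ± 0.11) and Hk3 from 432 and 445 FPKM to 189.6 and 145 FPKM (-1.40 ± 0.17). Ldha, Hk2 and Slc2a1 were not called. Of 24 tricarboxylic acid cycle genes 3 rose and 4 fell, near or below the shares over all entries (14.7% and 25.3%). Without the first 2 h or the second 6 h library 1 rose, and without the first 6 h library 2 fell. Of 21 respiratory-chain genes 1 rose and none fell, also below those shares. Cholesterol synthesis had 7 of 22 lower and none higher, beside 25.3% and 14.7% over all entries. Among those lower was Sqle, the squalene epoxidase, from 3.72 and 4.02 FPKM to 1.22 and 1.45 FPKM (-1.06 ± 0.13). In oxidative defence and iron handling 7 of 16 fell and 5 rose: Hmox1 went from 249 and 250.2 FPKM to 110.4 and 104 FPKM (-1.21 ± 0.14) and Prdx1 from 1441 and 1424 FPKM to 634 and 605 FPKM (-1.21 ± 0.16), whereas the transferrin receptor Tfrc rose from 1.86 and 1.76 FPKM to 6.56 and 8.5 FPKM (1.59 ± 0.24). Without the first 6 h library 3 of this list were higher. Among cell-cycle genes 9 of 29 fell and 2 rose, beside 25.3% lower and 14.7% higher over all entries. Ccnd1 fell from 27.1 and 19.4 FPKM to 2.56 and 2.07 FPKM (-2.86 ± 0.24). The inhibitor Cdkn1a fell from 1132 and 1198 FPKM to 315 and 335 FPKM (-1.84 ± 0.11), and Tyms rose by 1.52. Of 18 tested amino-acid and endoplasmic-reticulum stress genes 9 fell and 1 rose (none without the first 2 h library), against 25.3% lower and 14.7% higher over all entries. Among those that fell was Ppp1r15a (GADD34) from 569 and 599 FPKM to 99.8 and 78.3 FPKM (-2.71 ± 0.26). Of 16 hypoxia-linked genes 4 fell and 3 rose, close to the same shares over all entries, among the latter Txnip from 8.12 and 10.0 FPKM to 42.5 and 51.1 FPKM (2.25 ± 0.21).

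Set beside the other settings, the same hours gave 5914 called entries in unprimed LPS cells (49.4%) and 3636 in primed PBS cells (30.4%), against 4796 here (40.0%). The change over time differed between primed and unprimed LPS cells for 5312 entries (44.4%), 2282 of them higher in primed cells and 3030 lower. Each of the 2 tested differences, from unprimed LPS and from primed PBS cells, uses the 4 primed LPS libraries again, so the 2 are not independent of each other. Genes called in opposite directions in the 2 LPS series, picked from a set of inflammatory genes after their values were seen, were Cxcl9, Irg1, Zfp36, Atf3 and Fos. Zfp36 fell from 864 and 770.4 FPKM to 269.9 and 200.3 FPKM in primed cells and rose from 159.9 and 149.8 FPKM to 544 and 687 FPKM in unprimed cells, a difference of -3.78 ± 0.39 (adjusted p = 3.7e-05). Cxcl9 fell from 157 and 124 FPKM to 52.6 and 52.1 FPKM and rose from 3.8 and 2.18 FPKM to 32.5 and 54.5 FPKM, a difference of -4.86 ± 0.34. By 6 h the primed libraries lay within the range of the unprimed ones for Cxcl9 and below them for Zfp36. Nos2 was 11.1 and 4.76 FPKM at 2 h and 213 and 279 FPKM at 6 h in unprimed LPS cells, a change of 4.88 beside 1.15 in primed cells, which held more of the transcript at 2 h.

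The largest negative differences between the 2 LPS series included interferon-induced genes such as Isg20, Ifi44 and Gbp2. Ms4a4c was 2859.8 and 2945 FPKM and 1765 and 1712 FPKM in primed cells and 6.38 and 3.98 FPKM and 702 and 990.1 FPKM in unprimed cells, a difference of -7.84 ± 0.29 (adjusted p = 1.2e-07). Isg20, Slfn4, Ifi44, Gbp2, Tnfsf10, I830077J02Rik and Slco3a1 followed with differences between -6.50 and -5.76. The largest positive ones were Rnd1, at 9.84 and 12.3 FPKM and 29.1 and 25.5 FPKM in primed cells against 91.1 and 53.7 FPKM and 5.5 and 4.03 FPKM in unprimed cells (4.87 ± 0.37), and then Tsr1, Grwd1, Plat, Rrs1, Atad3a, Gnl3 and Hamp, between 4.39 and 4.07. Tsr1, Rrs1 and Gnl3 are members of the ribosome biogenesis list, and Plat, tissue plasminogen activator, was 5.38 and 6.52 FPKM and 24.6 and 25.6 FPKM in primed cells.

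Against primed cells given PBS, the change over time differed for 2557 entries (21.3%), 1077 of them higher with LPS and 1480 lower. Nos2 had a difference of 4.42 ± 0.42 (adjusted p = 1.1e-04): it rose with LPS and went from 56.4 and 53.4 FPKM to 5.46 and 4.23 FPKM without it. Lcn2, St3gal3, Vnn3 and U90926 had the other 4 largest positive differences, between 4.90 and 3.8. On the negative side, Rgs2, a regulator of G-protein signalling, fell from 62 and 56.8 FPKM to 7.25 and 7.73 FPKM with LPS and rose from 47.9 and 59.8 FPKM to 110.4 and 161 FPKM without it (-4.13 ± 0.30). Susd3 and Kcnk13 had the same opposed pattern, at 37.8 and 33.8 FPKM and 21 and 21.7 FPKM in the 6 h PBS libraries, with differences of -4.18 and -3.61. Metrnl was 372 and 413 FPKM at 6 h in PBS cells and differed by -3.60, and Areg differed by -3.74. The persistence of Il1b and Clec4e after LPS stood beside falls in primed PBS cells, where Clec4e went from 822 and 740.4 FPKM to 221 and 218 FPKM.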

How the data were processed

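The authors deposited 1 table of FPKM values for 14 libraries, made with TopHat2, Cufflinks and Cuffnorm, per the submitters' processing notes; versions and read depth are not given in the sources used here. Libraries were stranded poly(A) paired-end RNA-seq, per the labels' protocols. The labels name mm9, but the entries' coordinates match GRCm38 (GENCODE M21): 33796 of 33853 single-gene entries overlapped their gene. Of the tested entries, 832 name several genes (left out of lists) and 5936 share a locus with another entry.

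Values were log2(FPKM + 1), for named entries with at least 1 FPKM in 2 or more libraries. limma 3.58.1 in R 4.3.3 fitted 1 mean per group over all 14 libraries, with moderated, intensity-trended variances (6 residual and a median of 3.99 prior degrees of freedom), no replicate block, and Benjamini-Hochberg adjustment over 11977 entries (threshold 0.05, 2-sided). The fit was tested on simulated data.

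Genes were named by rank among single protein-coding genes with a mean of at least 5 FPKM: the 12 largest rises and falls, up to 10 late, lost and persisting genes, the 8 and 5 largest differences from unprimed LPS and primed PBS cells, a set of inflammatory and metabolic genes, and members of gene lists. Members and lists were chosen with earlier results of these data known. The alternatives tried were median-of-ratios scaling, no filter, no trend, a pseudocount of 0.1, the primed LPS libraries alone, single-gene entries, a replicate block and leaving out each library; leaving out the first 2 h primed PBS library from the primed LPS change was added after seeing the data. Figures were drawn with Python and matplotlib. A few items are not reported here.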

Additional observations from a re-analysis of the deposited data

Results flagged for a closer look

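A change over time that differed between 2 settings, by a test of the difference itself, is what brought the following results here. Between primed and unprimed LPS cells 5312 entries differed, and between primed cells given LPS and given PBS 2557 did.

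Compared with unprimed LPS cells, the primed 6 h minus 2 h change was higher for Rnd1 by 4.87, Tsr1 by 4.39, Grwd1 by 4.38, Plat by 4.22, Rrs1 by 4.22, Atad3a by 4.13, Gnl3 by 4.09 and Hamp by 4.07 on the log2(FPKM + 1) scale. It was lower for interferon-responsive and other genes, with differences of -7.84 for Ms4a4c, -6.50 for Isg20, -6.35 for Slfn4, -6.24 for Ifi44, -6.17 for Gbp2, -5.98 for Tnfsf10, -5.87 for I830077J02Rik and -5.76 for Slco3a1. Among the inflammatory genes that moved in opposite directions the differences were -4.86 for Cxcl9, -3.78 for Zfp36, -3.17 for Fos, -3.01 for Irg1 and -2.65 for Atf3.

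Compared with primed PBS cells, the change was higher for Lcn2 by 4.90, St3gal3 by 4.49, Nos2 by 4.42, Vnn3 by 3.98 and U90926 by 3.8. It was lower for Susd3 (-4.18), Rgs2 (-4.13), Areg (-3.74), Kcnk13 (-3.61) and Metrnl (-3.60). Each of these named differences kept its call under every alternative run.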

How the results depend on the processing

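Each named gene called in primed LPS cells kept its direction under the alternatives run. Counts of called entries, both higher and lower, moved with the number of libraries. Without 1 primed LPS library there were between 1106 and 1311 higher entries (1762 with all, and 1634 without the first 2 h primed PBS library). Leaving out 1 library gave between 2013 and 3015 called entries in primed PBS cells (3636), and between 1580 and 2274 for the difference from primed PBS cells (2557). The lowest of these were without the second 6 h PBS and the first 6 h LPS library; 1697 remained for the difference without the second 2 h PBS library, and 2021 and 2114 for primed PBS cells without the first and second 2 h library. A pseudocount of 0.1 raised the entries higher by at least 2-fold from 441 to 757.

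Same-numbered replicates did not deviate together (correlations between -0.19 and 0.078). The replicate block gave 4511 called entries in primed LPS cells against 4796 and moved no count over all entries by 1.5 times. It ended the calls of Ifi44 (adjusted p = 0.057 by limma), Fh1 (0.062) and Dusp1 (0.066). The calls of Ifi44, Fh1 and Dusp1 also ended without the first 2 h primed PBS library.

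Genes that changed sign were not called with all libraries, and the cause was not tested. Without 1 primed LPS library the change ranged from -0.0414 to 0.0581 for Tmsb4x, from -0.2511 to 0.0733 for Il1rn, from -0.0415 to 0.2514 for Il6, from -0.3396 to 0.3715 for Csf3, from -0.2134 to 0.0067 for Socs3 and from -0.4861 to 0.0072 for Tlr4. At a pseudocount of 0.1 Csf3 was -0.0082. Read depth is unknown, so counting error cannot be given.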
